A study of Mus musculus with 4 samples.

Results

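Kinetochores are the protein assemblies that join chromosomes to spindle microtubules, and the spindle checkpoint holds a dividing cell before anaphase until every kinetochore is attached. This account follows 10 mouse genes of that machinery, Cenpa, Ndc80, Nuf2, Spc25, Bub1, Bub1b, Ttk, Mad2l1, Cenpf and Birc5, in sorted hair follicle stem cells. They were found by gene symbol: every probe set whose platform annotation names a single one of these symbols was taken, which gave 13 probe sets for 10 of the 12393 genes that the array measures through a probe set with 1 symbol. Bub1, Spc25 and Cenpf had 2 probe sets each.

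The cells came from back skin of females of a CD1/C57BL/6 background, at about postnatal day 60, and were sorted for CD34, integrin α6 and a yellow fluorescent protein (YFP) reporter, signals that together select the bulge, the stem cell compartment of the resting hair follicle. The 2 groups were Tbx1 cKO, a conditional knockout of the T-box transcription factor gene Tbx1, and wild type (WT), with 2 Affymetrix arrays each. Of each group, 1 array belonged to set 2 and 1 to set 1. All 4 samples carry the same treatment text, wax depilation 48 h before harvest, but a second label calls both set 2 samples activated and both set 1 samples quiescent. This disagreement cannot be settled from the labels, so the sets are named by number. The sources used here do not name the Cre driver, the deleted exons or how many animals gave each array. No label states that arrays of 1 genotype are from different animals, and the p-values therefore reflect the spread between these particular samples, which could be technical.

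In a resting follicle few bulge cells divide, and transcripts of the kinetochore and checkpoint peak in the G2 and M phases of the cell cycle. Cenpa encodes the histone H3 variant that marks the centromere, and the Ndc80 complex, which includes the products of Ndc80, Nuf2 and Spc25, binds the microtubule. Ttk (Mps1) and Bub1 are the kinases that start checkpoint signalling, and Bub1b (BubR1) and Mad2l1 (Mad2) are parts of the complex that inhibits the anaphase-promoting complex. Cenpf coats the outer kinetochore, and Birc5 (survivin) is a subunit of the chromosomal passenger complex that corrects faulty attachments.

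Many G2 and M phase genes carry a cell cycle homology region (CHR) near their start, an element bound by the MuvB protein complexes that repress such genes in resting cells and activate them before mitosis, often beside CCAAT boxes. RefSeq promoter sequences (GRCm38.p6, 250 bases before to 50 after the gene start) were found for all 10 members and were searched on both strands for 3 motifs. The usual CHR is spelled TTTGAA. A known variant of it reads TTCGAA. The box bound by NF-Y is CCAAT. The usual CHR lay in 6 of the 10 promoters, against 17.9% of 32851 promoters in the table. The variant lay in 2, against 1.56% of all promoters, and 7 members held one or the other, against 19.2%. The CCAAT box lay in 6 members' promoters, against 37.4% of all, and 5 held at least 2 copies, against 11.7%. No match overlapped another. The next lines show the CHR letters of these 7 members in capitals, 5′ to 3′ on the gene's own strand, with 1 match for each. They are shown so that the element can be compared between the members that hold it, and the capitals of Ttk and Ndc80 are the usual CHR as it reads from the opposite strand.
Bub1: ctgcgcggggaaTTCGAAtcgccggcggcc
Bub1b: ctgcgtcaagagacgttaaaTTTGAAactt
Ttk: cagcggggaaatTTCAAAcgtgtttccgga
Ndc80: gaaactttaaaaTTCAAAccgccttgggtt
Spc25: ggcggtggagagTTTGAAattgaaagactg
Cenpa: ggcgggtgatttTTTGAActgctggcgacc
Cenpf: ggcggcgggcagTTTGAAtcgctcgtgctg
These windows lie at chr2:127831828-127831857 (minus strand) for Bub1, chr2:118598231-118598260 (plus) for Bub1b, chr9:83834684-83834713 (plus) for Ttk, chr17:71526811-71526840 (minus) for Ndc80, chr2:69206172-69206201 (minus) for Spc25, chr5:30666890-30666919 (plus) for Cenpa and chr1:189688067-189688096 (minus) for Cenpf. Counted from 1 at the start base, the capitals begin between base 3 in Cenpf and base 41 in Bub1b. Bub1b also held the variant upstream, from base -188 to -183, which is not shown. The 250 bases upstream of Bub1 (chr2:127831860-127832109, minus strand), the member with the largest difference between the genotypes, held the CCAAT box once on each strand, shown in capitals here.
Bub1 upstream: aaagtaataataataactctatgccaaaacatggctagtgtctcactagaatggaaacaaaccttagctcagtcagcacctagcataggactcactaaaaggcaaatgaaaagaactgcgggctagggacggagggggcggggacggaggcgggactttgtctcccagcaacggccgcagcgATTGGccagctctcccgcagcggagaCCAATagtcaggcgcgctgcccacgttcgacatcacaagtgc
A match of letters is a description of the sequence and not a bound site, and no match in Nuf2, Mad2l1 or Birc5 says only that the CHR letters are not in this window. Nuf2, Mad2l1 and Birc5 were lower in cKO too, as described for each gene in what follows.

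Values are log2 of the deposited intensity, and differences are on the same scale. Median log2 intensity lay between 6.36 and 6.38 on the 4 arrays, and genes with a mean under 5.40, percentile 40 of all probe sets, were left out of the tests, which left 8031 genes with all 10 members among them. Tbx1 read 8.88 and 9.54 on the cKO arrays, against 10.37 and 10.53 on the WT arrays, 42.4% of WT on the means. Tested with limma among all probe sets with 1 symbol, Tbx1 had an adjusted p of 0.310, and the sources used here do not say whether its probe set lies inside the deletion. All 11 bulge and basal keratinocyte markers, Cd34, Itga6 and Krt15 among them, lay above the limit on every array. In set 2 and set 1 the sums of their linear intensities were 66612 and 67177 on the cKO arrays and 55157 and 58209 on the WT arrays.

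Some values outside the members moved with the groups or with single arrays. The 11 endothelial markers were all lower in cKO within both sets, with summed intensities in set 2 and set 1 of 198 and 185 in cKO, against 2457 and 2564 in WT. The sums that follow are in the same order of sets. All 11 lay under the limit on both cKO arrays, and 4 of them, Pecam1, Kdr, Tek and Tie1, on the WT arrays too. The hair germ and matrix list summed to 980 and 1018 in cKO and 814 and 1024 in WT, with Shh and Lef1 under the limit on all 4 arrays. The fibroblast list summed to 271 and 298 in cKO and 348 and 300 in WT, and 4 of its 6 genes, Col1a1, Col3a1, Pdgfra and Lum, lay under the limit on all arrays. The melanocyte list summed to 278 and 213 in cKO and 247 and 202 in WT. The immune list summed to 317 and 407 in cKO and 230 and 377 in WT, with 6 of 8 genes, Ptprc included, under the limit on all arrays. The WT set 2 array read 12.35 for the nuclear RNA Malat1, against 9.80 to 10.56 on the other 3. The cKO set 1 array had a 3′ minus 5′ difference of 2.95 for the added Dap control transcript, against 1.74 to 1.82 on the others. The part of these values in the member results was not tested, and member differences without these 2 arrays are given with the genotype results.

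The comparison of cKO with WT asked how transcripts of the stem cells differ when Tbx1 is removed. All 10 members read lower in cKO. Within both sets each was lower in cKO, where 27.9% of all genes kept were, and on all 10 both cKO arrays lay below both WT arrays, where 19.9% of genes did. The differences of means ran from -1.07 for Bub1 to -0.50 for Birc5, with a median of -0.67, against 0.03 over all genes kept. In linear terms the members stood at 47.6% to 70.8% of WT. Over all genes limma called none of them (adjusted p 0.196 to 0.320). It called 7 genes, or 0.0872%, and 5 of these, or 0.0623% of all genes, were lower in cKO. Of these 5 genes, 4 were endothelial markers. At an unadjusted p under 0.05 limma gave 10 of 10 members as lower, against 5.79% of genes. The members, and the gene lists that follow, were chosen with earlier results of these data known. Their shares set against all genes are therefore not independent support. Once the set was added as a block, 83 genes passed, or 1.03%, but none of the members (adjusted p 0.0537 to 0.204). In a bulk sample, fewer dividing cells and less of each transcript per cell cannot be told apart. The part of the endothelial marker difference in the member values was not tested. With 2 arrays against 2, an exact permutation test of a single gene cannot give a p below 0.333.

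**Figure D1:**
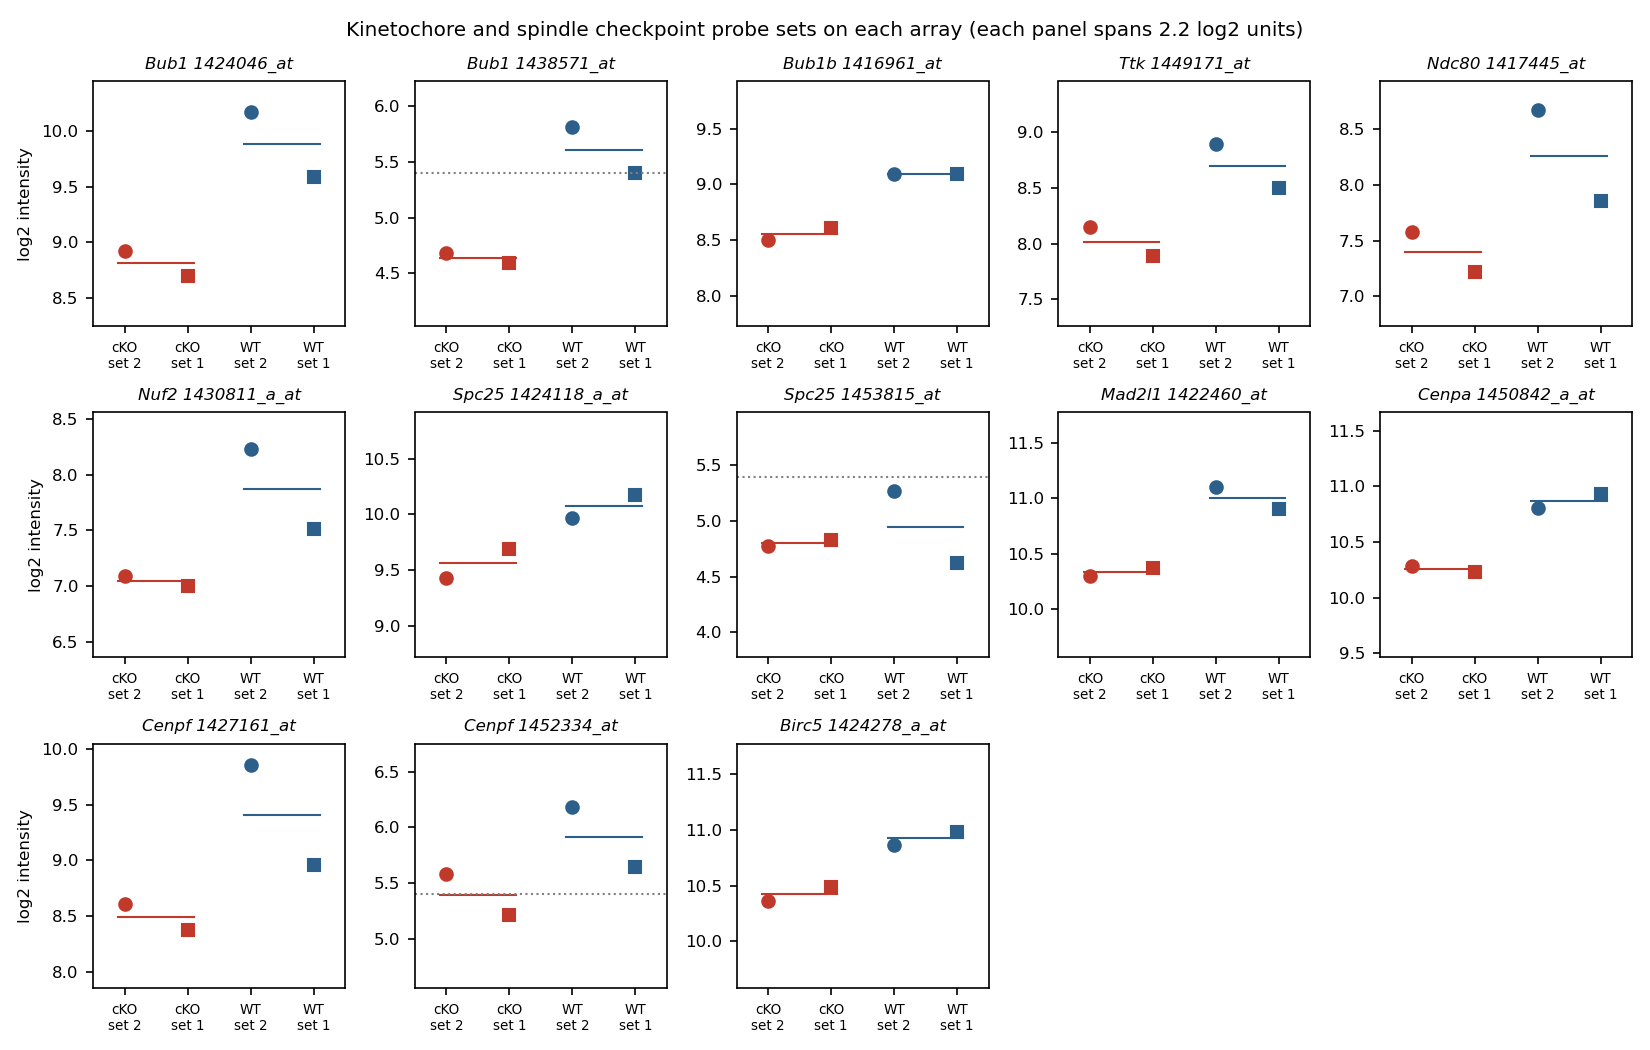
Log2 intensity of the 13 member probe sets on each array (circles set 2, squares set 1, lines the mean of each genotype, dotted line the limit of 5.40 where it falls in the panel). On 12 of the 13 both cKO arrays lie below both WT arrays, and the dim second Spc25 probe set is the exception.

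Of the centromere, Cenpa read 10.28 in set 2 and 10.23 in set 1 on the cKO arrays, against 10.81 and 10.93 on the WT arrays. Arrays of the same genotype lay within 0.12 of each other, and the groups did not overlap. Its difference of -0.61 (SE 0.16, limma adjusted p = 0.233) put cKO at 65.5% of WT. It was the member whose difference was smaller in set 2 (-0.53) than in set 1 (-0.70).

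Of the Ndc80 complex, Ndc80 read 7.58 in set 2 and 7.21 in set 1 in cKO, against 8.67 and 7.85 in WT. Nuf2, its partner in the microtubule-binding head, read 7.09 and 6.998 in cKO, against 8.23 and 7.51 in WT. For both genes the WT set 2 array stood highest, and the groups did not overlap. Ndc80 differed by -0.87 (SE 0.30) and Nuf2 by -0.83 (SE 0.26), with limma adjusted p of 0.318 and 0.286. The Ndc80 difference was -1.09 in set 2 and -0.64 in set 1, and that of Nuf2 -1.14 in set 2 and -0.51 in set 1. Spc25, at the end that anchors the complex to the kinetochore, behaved more evenly. Its brighter probe set read 9.43 in set 2 and 9.69 in set 1 in cKO, against 9.96 and 10.18 in WT, so that its WT set 2 array was the lower WT value. It differed by -0.51 (SE 0.18, limma adjusted p = 0.320), with -0.54 in set 2 and -0.49 in set 1. The second Spc25 probe set lay under the limit on all 4 arrays, at 4.77 and 4.83 in cKO and 5.27 and 4.63 in WT, and its groups overlapped.

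Of the checkpoint kinases, Bub1 had the largest difference of the members. It read 8.93 in set 2 and 8.70 in set 1 in cKO, against 10.17 and 9.59 in WT, with means of 8.81 ± 0.16 in cKO and 9.88 ± 0.41 in WT (SD, n = 2). The difference of -1.07 (SE 0.24, limma adjusted p = 0.196, and 0.0537 with the set as a block) put cKO at 47.6% of WT, 42.0% within set 2 and 53.9% within set 1. Bub1 stood at rank 47 of the 8031 genes, counted from the lowest cKO minus WT difference. A second, dim Bub1 probe set, under the limit on both cKO arrays, gave a difference of -0.97, with -1.13 in set 2 and -0.80 in set 1. Ttk read 8.15 in set 2 and 7.89 in set 1 in cKO, against 8.90 and 8.50 in WT. Its groups did not overlap, and its difference was -0.68 (SE 0.21, limma adjusted p = 0.272).

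Of the checkpoint effectors, Bub1b read 8.50 in set 2 and 8.61 in set 1 in cKO, against 9.09 on both WT arrays. Mad2l1 read 10.30 and 10.38 in cKO, against 11.10 and 10.91 in WT. Both genes varied little between arrays of a genotype, and neither had overlapping groups. Bub1b differed by -0.54 (SE 0.16, limma adjusted p = 0.261) and Mad2l1 by -0.67 (SE 0.16, limma adjusted p = 0.228).

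Of the remaining members, the outer kinetochore gene Cenpf read 8.61 in set 2 and 8.38 in set 1 in cKO, against 9.86 and 8.96 in WT. Its WT arrays were 0.90 apart, the widest gap within a genotype among the members. It differed by -0.92 (SE 0.31, limma adjusted p = 0.312), with -1.26 in set 2 and -0.58 in set 1. Its second probe set, close to the limit, gave a smaller difference of -0.52. Birc5 read 10.36 in set 2 and 10.49 in set 1 in cKO, against 10.87 and 10.98 in WT. Its difference of -0.50 (SE 0.16, limma adjusted p = 0.290), the smallest of the members, was nearly equal in the sets, at -0.50 in set 2 and -0.49 in set 1.

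In 7 of the 10 members, all but Bub1b, Spc25 and Birc5, cKO was at least 1.5-fold below WT on the means, where 4.33% of genes kept were. Bub1, Ttk and Ndc80 were at least that much lower within both sets, where 1.64% of genes were. The difference was more negative in set 2 than in set 1 for 9 members, all but Cenpa, where 48.3% of genes were. The member median was -0.78 in set 2 and -0.55 in set 1. This difference between the sets rests on 1 array per genotype and set and was not tested. Comparing only the cKO set 2 array with the WT set 1 array left out both arrays with unusual control or nuclear RNA values. All 10 members were lower in cKO there. This had to follow, since both cKO arrays lay below both WT arrays for each member, and only the sizes are new. The median of that comparison was -0.60, and the values ran from -0.75 for Spc25 to -0.27 for Ndc80. These arrays also differ in set. Ndc80, Cenpf and Nuf2 moved most with the choice of arrays. Their differences were -0.46, -0.47 and -0.46 without the WT set 2 array, and -1.27, -1.37 and -1.19 without the WT set 1 array.

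**Figure D2:**
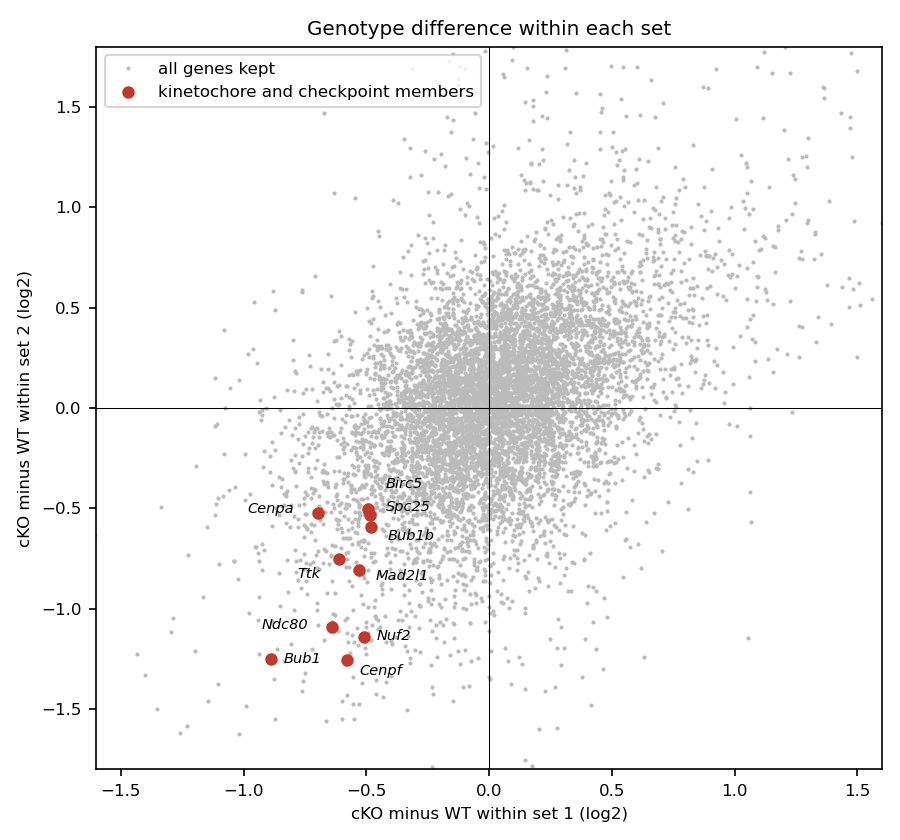
Difference of cKO minus WT on the log2 scale within set 1 (horizontal) and set 2 (vertical) for the 8031 genes kept (grey) and the 10 members (red); 98 genes lie outside the axes. All members lie at the lower left, between -0.89 and -0.48 in set 1 and between -1.26 and -0.50 in set 2.

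The comparison of set 2 with set 1 gave no such common direction. limma called none of the 8031 genes in it (0%), where 230 genes, or 2.86%, had an unadjusted p under 0.05 and none of these was a member. With the genotype as a block 1 gene passed (0.0125%), again no member (adjusted p 0.503 to 0.974). The member differences of set means ran from -0.24 for Spc25 to 0.59 for Ndc80, with a median of 0.19, against -0.05 over all genes kept. For no member did the set 2 arrays lie all above or all below the set 1 arrays. Over all genes kept, 11.1% lay above and 19.5% below. For the members this outcome was fixed by the genotype result, since both cKO arrays lay below both WT arrays. It adds nothing about the sets. Both comparisons use the same 4 arrays.

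The members differed among themselves in this comparison. Bub1, Ttk, Ndc80, Nuf2 and Cenpf were higher in set 2 within both genotypes, where 19.8% of genes were, by 0.40 for Ttk to 0.90 for Cenpf in WT and by 0.09 for Nuf2 to 0.37 for Ndc80 in cKO. Spc25 and Birc5 were lower in set 2 within both genotypes, where 35.8% of genes were. Spc25 differed by -0.26 in cKO and -0.21 in WT, and Birc5 by -0.13 and -0.11. Bub1b, Mad2l1 and Cenpa differed in opposite directions in the 2 genotypes, by 0.20 or less either way. Over all members the median was 0.07 in cKO and 0.30 in WT. Since WT lay above cKO on every array, the 5 members higher in set 2 in both genotypes had to read highest on WT set 2. Bub1b and Mad2l1 also had their highest value there. That array stood apart in Malat1, and its part in these differences was not tested. The standard errors ran from 0.27 for Birc5 to 0.50 for Bub1, and limma gave every member an adjusted p of 0.999. That fit had no genotype term, so each member's genotype difference widened its standard error and made a call unlikely.

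**Figure D3:**
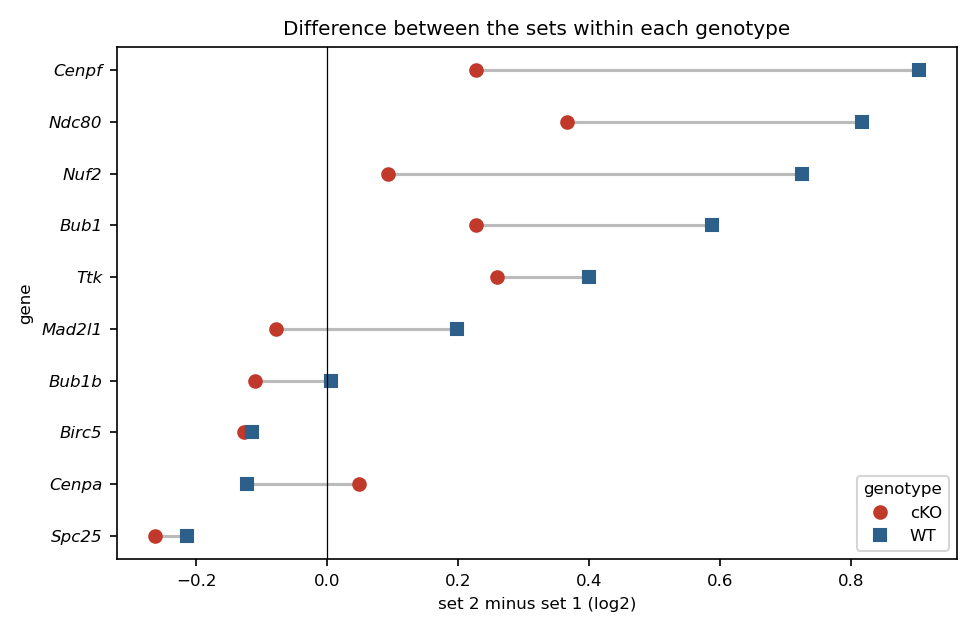
Difference of set 2 minus set 1 on the log2 scale for each member, within cKO (red circles) and within WT (blue squares), ordered by the WT value. Cenpf, Ndc80, Nuf2, Bub1 and Ttk lie right of 0 in both genotypes and further right in WT, and the other 5 lie between -0.26 and 0.20.

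Other genes of the kinetochore and centromere had the same direction between the genotypes. Of 48 listed genes, 31 had a probe set with 1 symbol and 30 were kept. Of these 30, 26 were lower in cKO within both sets and none higher, where 27.9% of all genes kept were lower, and on 25 both cKO arrays lay below both WT arrays, where 19.9% of all genes did. Their median difference was -0.58. In limma's test over all genes 0 of the 30 passed, where 0.0872% of all genes kept did. With the set as a block 2 passed, where 1.03% of all genes did, 0.374% as lower in cKO. These 2 were Cenpe, the kinetochore motor, and Haspin, the kinase that marks histone H3 for the passenger complex. Cenpe read 7.40 in set 2 and 6.25 in set 1 in cKO, against 9.43 and 7.88 in WT, a difference of -1.83 (SE 0.59, limma adjusted p = 0.290, and 0.0144 with the block). Without the WT set 2 array its difference was -1.05, and without the WT set 1 array it was -2.60. Of the 30 genes it also had the largest difference of set 2 minus set 1, 1.36 on the means, which was 0.34 when WT set 2 was left out, 0.54 with cKO set 1 left out, 2.17 with WT set 1 left out and 2.37 with cKO set 2 left out. Haspin read 5.79 and 5.82 in cKO, against 7.29 and 7.17 in WT, a difference of -1.43 (SE 0.16, limma adjusted p = 0.0741, and 0.0217 with the block). It also passed with a variance trend and robust fitting (adjusted p = 0.0433).

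Among centromere and CENP-A loading genes, 10 of 12 were lower in cKO within both sets. On all 4 arrays those with the largest differences were Cenpk (-0.86), Cenph (-0.80) and Cenpm (-0.73), subunits of the constitutive centromere network. Their order depended on the WT set 2 array, without which the differences were -0.51 for Cenpk, -0.55 for Cenph and -0.84 for Cenpm. Of 7 outer kinetochore genes 6 were lower within both sets, and beside Cenpe the largest differences were those of Dsn1 (-0.84), a subunit of the Mis12 complex, and Ska2 (-0.74), of the complex that helps Ndc80 hold microtubules. Of 7 checkpoint and corona genes 6 were lower within both sets, and the largest differences on all 4 arrays were those of Zwilch (-0.86) and Spdl1 (-0.76), which bring dynein to the kinetochore, and Trip13 (-0.63), which remodels Mad2. Without the WT set 2 array these were -0.51 for Zwilch, -0.53 for Spdl1 and -0.74 for Trip13, and Trip13 was at -0.40 when cKO set 2 was left out. All 4 passenger and cohesion genes were lower within both sets, with -0.56 for the cohesin protector Sgo1 and -0.51 for the passenger kinase Aurkb beside Haspin. Sgo1 was at -0.37 without the WT set 2 array. Aurkb was at -0.77 when WT set 2 was left out, -0.25 with WT set 1 left out and -0.32 with cKO set 2 left out. The 4 exceptions, named after their values were seen, were Cenpb (0.20), Cenpx (-0.06), Mis12 (-0.28) and Mad2l1bp (-0.06), which differed in opposite directions in the sets. Cenpb encodes a protein that binds satellite DNA, and Mad2l1bp one that helps to silence the checkpoint.

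Other lists of cell division genes had medians of like size, a comparison that was not tested. The median was -0.63 over 12 mitotic regulators and -0.59 over 14 DNA replication genes, all of which were lower in cKO within both sets, where 27.9% of all genes were. Single genes ran from -1.003 to -0.18 in the first list and from -0.90 to -0.30 in the second. Mki67, the gene of the proliferation marker Ki-67, had the largest difference of the mitotic regulators, -1.003. It read 10.26 in set 2 and 10.14 in set 1 in cKO, against 11.74 and 10.68 in WT. Its WT set 2 array was the highest, as for Cenpf and Ndc80, and the difference was -0.47 without that array and -1.53 when WT set 1 was left out. The 11 bulge and basal markers had a median of 0.11, with 4 higher and 1 lower in cKO within both sets, where 35.8% of all genes were higher and 27.9% lower.

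**Figure D4:**
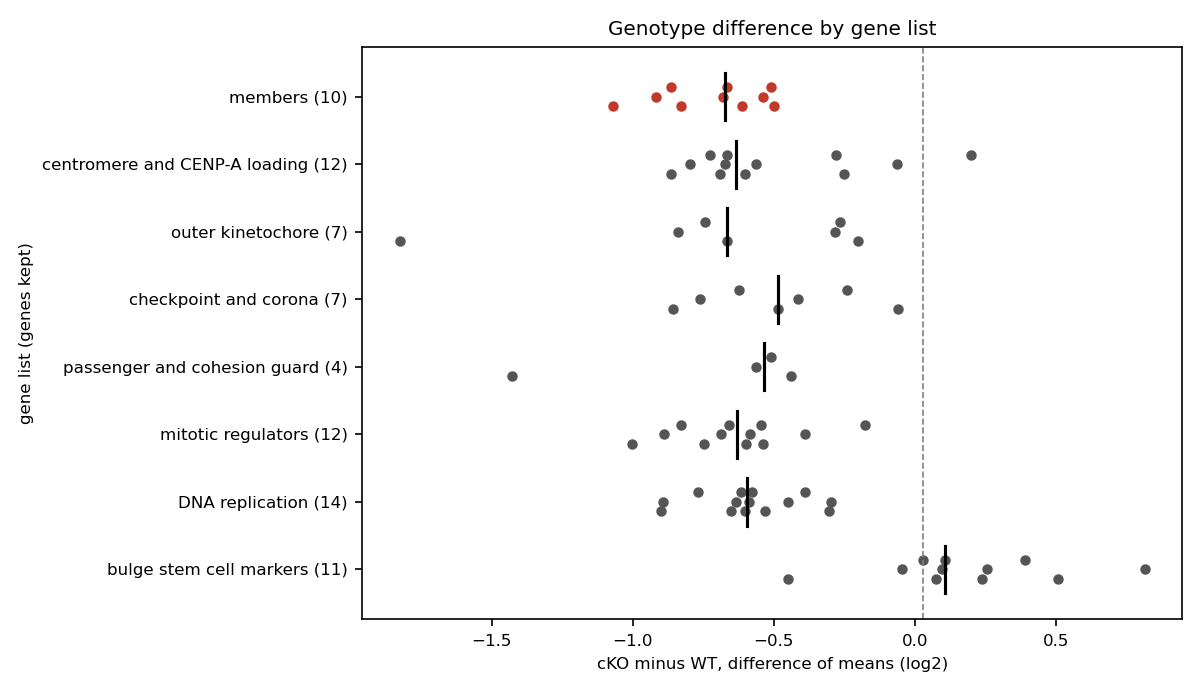
Difference of cKO minus WT on the log2 scale for each kept gene of the members (red) and of 7 other lists (grey); black bars are list medians and the dashed line is the median of all genes kept, 0.03. The cell division lists have medians from -0.67 to -0.48, and the bulge markers 0.11.

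After each gene's mean was subtracted, the members' average profile was -0.33 in set 2 and -0.39 in set 1 on the cKO arrays, and 0.52 and 0.20 on the WT arrays. The WT set 2 array varied most between members (SD 0.30 over 10 genes) and the cKO set 2 array least (SD 0.07). Mad2l1 and Ttk lay closest to this average, at Euclidean distances of 0.14 and 0.15 over the 4 arrays, and Spc25 farthest, at 0.49. The 5 other genes nearest to it were Tardbp (distance 0.07), Hmgb2 (0.09), Hspa14 (0.09), Stil (0.10) and Nol11 (0.10). Their cKO minus WT differences ran from -0.66 for Tardbp to -0.78 for Nol11. Since these genes were chosen by their distance over the same arrays, differences near those of the members had to follow. With 4 arrays many genes can share such a profile, so these distances describe likeness over these arrays only.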

How the data were processed

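Per the labels' protocols, 2 µg of Trizol-extracted RNA from each of 4 samples of sorted mouse hair follicle stem cells was made into biotinylated cRNA. The authors deposited a linear intensity for each of 22690 probe sets. The submitters' processing notes name RMA without a version or settings. Deposited intensity ran from 5.29 to 25561, so log2 was taken here. RMA gives no detection call, and differences of dim genes are compressed.

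Of the probe sets, 20380 had 1 gene symbol, 691 several, 1555 none and 64 were controls. Identifiers of 20351 were found in the RefSeq gene table of GRCm38.p6, and 0 symbols changed. Each gene was tested through its probe set with the highest mean. Genes under percentile 40 (log2 5.40, linear 42.2), Xist and Y-linked genes were left out. limma 3.58.1 in R 4.3.3 (lmFit, eBayes, no covariate) was fitted to all 4 arrays for genotype and again for set, with Benjamini-Hochberg adjustment over 8031 genes at 0.05. The fit was run on simulated data with independent genes, no set effect and changes mostly larger than those of the members. It therefore does not show how well differences of the members' size are found. Set numbers come from the titles, and since the descriptions name 1 state per set, the set was taken to pair the arrays. The deviations of the paired arrays from their genotype means had r = 0.192 across genes, which do not count as replicates.

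The members and lists were chosen with earlier results of these data known. Named were all members, up to 3 genes per kinetochore list with the largest genotype difference, and the 5 genes nearest to the members' profile. Genes of the other cell division lists, and set differences of list genes except Cenpe, fall under the same rule but were left unnamed, except Mki67, once the values were known. Alternatives were other filters, means of probe sets, single probe sets, a second quantile normalisation, median centring, blocks, a variance trend with robust fitting, and leaving out each array. Precision is limited by having 4 arrays.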

Additional observations from a re-analysis of the deposited data

Results flagged for a closer look

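The differences described here had opposite signs in both groups compared, with 1 array on each side, and the difference between the groups was not tested. For Bub1b, set 2 minus set 1 was -0.11 in cKO and 0.0048 in WT, which are -0.12 apart. For Mad2l1 it was -0.08 in cKO and 0.20 in WT, -0.28 apart. For Cenpa it was 0.05 in cKO and -0.12 in WT, 0.17 apart. All 6 values are within 0.20 of 0.

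The second Spc25 probe set, under the limit on all 4 arrays, gave a cKO minus WT difference of -0.49 in set 2 and 0.20 in set 1, -0.70 apart. Its set 2 minus set 1 difference was -0.06 in cKO and 0.64 in WT, again -0.70 apart, since both are made from the same 4 values. The brighter Spc25 probe set gave -0.54 and -0.49 within the sets.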

How the results depend on the processing

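The genotype differences of all 10 members kept their direction under every alternative run. With every array kept, no member passed limma's test. With fewer arrays the direction could not change, since for each member both cKO arrays lay below both WT arrays. Blocks, filters and the variance trend left the differences themselves unchanged. So did testing each probe set on its own, for the probe sets chosen here. Median centring could not reverse a sign, since the array medians lay between 6.36 and 6.38. Means of probe sets could change only Bub1, Spc25 and Cenpf, and their second probe sets also had lower means in cKO. This left only the second quantile normalisation able to reverse a sign. The median of the member differences, -0.67, ran from -0.82 to -0.55 with an array left out. It was -0.60 with only the cKO array of set 2 and the WT array of set 1. The count of genes called between genotypes, 7 in limma, was 0 with a filter at percentile 60 (816 at an unadjusted p under 0.05), 28 with a variance trend and robust fitting, 83 with the set as a block (replicate block), and 2 to 16 with an array left out, the lowest without the WT set 2 array and the highest without the cKO set 2 array. Between the sets the count was 0, and 1 with the genotype as a block. The member median between the sets, 0.19, ran from -0.26 without the WT set 2 array to 0.58 without the cKO set 2 array. Leaving out an array makes the sets unequal in genotype, so these values mix both. Single set differences changed sign in the same way, with ranges of -0.22 to 1.03 for Bub1, -0.35 to 0.24 for Bub1b, -0.047 to 0.71 for Ttk, -0.16 to 0.98 for Nuf2, -0.51 to 0.029 for Spc25, -0.34 to 0.46 for Mad2l1, -0.39 to 0.31 for Cenpa, -0.063 to 1.19 for Cenpf and -0.37 to 0.13 for Birc5. Spc25 was also 0.027 with the mean of its probe sets, which includes the dim one. Among the other kinetochore genes the genotype difference changed sign with an array left out for Cenpb (-0.078 to 0.48), Cenpx (-0.25 to 0.12), Mis12 (-0.58 to 0.015) and Mad2l1bp (-0.18 to 0.0615), and for Cenpb with the mean of its probe sets (-0.006). Apart from the counts given, among the members, the other kinetochore genes named and Mki67 the block changed the calls of Cenpe and Haspin and no other.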
